A study of Mus musculus with 6 samples.

Results

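Cortical area patterning transcription factors set the size and position of the areas of the neocortex. The set examined here held 9 genes, Emx1, Emx2, Nr2f1, Nr2f2, Pax6, Sp8, Dmrta2, Id2 and Bcl11a, and was taken as every array probe that was not a control and that the scanner files name for one of them. These were 9 of the 35715 gene names on the array, with 13 of its 55681 probes. All 13 were tested: 12 of them were well above background on all 6 arrays and 1, for Pax6, on 4. The tissue was S1, the primary somatosensory cortex, which maps touch on whiskers and skin, from C57BL/6 mice at postnatal day 7. Controls (3 samples) carried Lhx2f/f without Cre according to the series design, though their titles call them wild type. The Lhx2 cKO group (3 samples) carried Lhx2f/f with Nex-Cre, a Cre recombinase expressed from the Neurod6 (Nex) locus in young excitatory neurons of the cortex and not in their progenitors. By the series design all 6 samples thus carry floxed Lhx2. The labels do not say whether samples were single animals, so each p-value measures only the spread between these samples.

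In the embryonic cortex, secreted signals from its edges set up opposing gradients of transcription factors in progenitors, and these gradients assign areal identity. Emx2 and the COUP-TF factors Nr2f1 and Nr2f2 are high caudally, whereas Pax6 and Sp8 are high rostrally, and Dmrta2 is high medially. Lhx2, a LIM-homeodomain factor, acts earlier to establish cortical identity. At the age studied here areas are already laid out, and several of these genes persist in other cells: Emx1 and Bcl11a in excitatory neurons, Nr2f2 and Sp8 in interneurons, Pax6 and Emx2 in progenitors or glia.

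The upstream sequence of the members with the clearest contrast is shown first, because Lhx2 binds DNA through a homeodomain and homeodomain proteins recognise short TAAT-containing sites. The windows are the 250 bases before the annotated start, 5′ to 3′ on the strand of the gene, from RefSeq on GRCm38.p6, and capitals mark a match. All 9 genes matched the RefSeq table, with 13 annotated starts. Emx1 and Emx2 are shown because their probes differed in opposite directions, Nr2f1 because both of its probes were higher in the cKO group, and the second annotated start of Pax6 because it holds a match.
Emx1 (chr6:85187681-85187930, plus strand): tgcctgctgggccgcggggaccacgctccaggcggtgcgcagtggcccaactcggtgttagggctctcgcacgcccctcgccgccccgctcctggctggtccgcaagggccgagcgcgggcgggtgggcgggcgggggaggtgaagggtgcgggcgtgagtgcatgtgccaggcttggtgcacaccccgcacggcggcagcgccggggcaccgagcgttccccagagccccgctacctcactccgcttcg
Emx2 (chr19:59458440-59458689, plus strand): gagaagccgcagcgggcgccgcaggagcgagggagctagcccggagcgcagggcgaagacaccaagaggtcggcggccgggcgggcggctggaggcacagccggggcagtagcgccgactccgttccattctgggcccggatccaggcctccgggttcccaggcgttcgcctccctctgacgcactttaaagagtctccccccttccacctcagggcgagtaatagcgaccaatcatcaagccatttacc
Nr2f1, first start (chr13:78198874-78199123, minus strand): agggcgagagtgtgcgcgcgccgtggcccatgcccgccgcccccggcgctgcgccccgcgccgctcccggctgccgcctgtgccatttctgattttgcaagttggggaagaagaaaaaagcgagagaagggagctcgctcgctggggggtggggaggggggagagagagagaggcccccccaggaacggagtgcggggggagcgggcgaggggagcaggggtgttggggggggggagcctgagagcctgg
Pax6, second start (chr2:105682213-105682462, plus strand): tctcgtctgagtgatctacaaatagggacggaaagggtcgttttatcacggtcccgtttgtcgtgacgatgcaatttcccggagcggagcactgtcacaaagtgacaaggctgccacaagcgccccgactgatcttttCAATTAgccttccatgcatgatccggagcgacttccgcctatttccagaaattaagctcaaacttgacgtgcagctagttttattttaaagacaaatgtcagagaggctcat
The letters TAATTA and TAATTG, and the nuclear receptor half-site AGGTCA that COUP-TF proteins can bind, were searched on both strands. None of these letters was in the windows of Emx1, Emx2, Nr2f1, Nr2f2, Dmrta2, Id2 or Bcl11a. TAATTG was in 1 of the 13 windows, at the second start of Pax6, where it reads as its reverse complement with its first base 112 bases before the start. TAATTA was in 1, before the third annotated start of Sp8, and AGGTCA in 1, before the second start of Sp8. Among all 32851 windows of this length (1 autosome left out), 4.84% held TAATTA, 7.17% held TAATTG and 14% held AGGTCA. The 3 motifs do not overlap one another in the member windows. In RefSeq the antisense gene Emx2os covers 196 bases of the Emx2 window. A match is a description of letters, and the absence of a match says only that these letters are not in this window.

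Values are log2 processed signal minus the 75th percentile of the array, so that 0 is the level of that percentile, and a difference is the cKO mean minus the control mean. The 75th percentile lay between 889 and 1064 intensity units, between 86.7% and 91.1% of the spots were well above background, and no spot was saturated. The number of arrays limits the precision. The arrays lay on 1 slide and were scanned together. Y-linked signal (Ddx3y, Eif2s3y and Kdm5d) was present in control replicates 1 and 3 and on no other array, so the groups also differed in this. Control replicate 1 shared slide row 1 with cKO replicate 2, control replicate 2 shared row 2 with cKO replicate 3, and each of the other arrays was alone in its row. The targeted gene went against its label: signal at the Lhx2 probe was 3.48 ± 0.04 in controls and 4.59 ± 0.17 under the cKO label (mean ± SD, n = 3 each), a log2 difference of 1.1 with no overlap. This difference did not pass the test (adjusted p = 0.089, limma). The sources used here do not say whether the probe lies in the part that Cre removes. Neurod6, the gene that drives Cre, had 2.13 ± 0.12 in controls and 2.5 ± 0.20 under the cKO label, again with no overlap. Its log2 difference of 0.38 did not pass either (adjusted p = 0.617, limma). Every direction below therefore rests on the labels, and the cKO group means the arrays labelled cKO. All 8 excitatory neuron markers in the list, among them Slc17a7 and Neurod2, were well above background on enough arrays to be tested.

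Of the 13 member probes, 4 were higher and 9 lower in the cKO group by sign, and none passed. In the limma fit over all 50030 tested probes, 0 member probes had an adjusted p under 0.05 (Benjamini-Hochberg), and 0% of all tested probes did. The lowest adjusted p among all probes was 0.058 and among the members 0.322. At an unadjusted p under 0.05 there were 5 member probes, 3 higher (Emx2 and both Nr2f1 probes) and 2 lower (Emx1 and 1 Sp8 probe), against 6.8% of all tested probes (2.9% higher and 3.9% lower). The 2 groups did not overlap for 6 of the 13 probes, against 12.7% of all tested probes. Of these 6, 3 were higher in the cKO group (6.79% of all probes) and 3 lower (5.87% of all probes). The median difference of the members was -0.28, against 0.02 over all tested probes. The count of 5 became 7 without cKO replicate 2 and 3 without cKO replicate 1 or 3. Over all tested probes the count was 3400, and 3529, 3391 and 2853 without cKO replicates 1, 2 and 3. When the fit included Y-linked signal, 1 member probe was left, and the count over all tested probes also fell, to 1526.

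**Figure D1:**
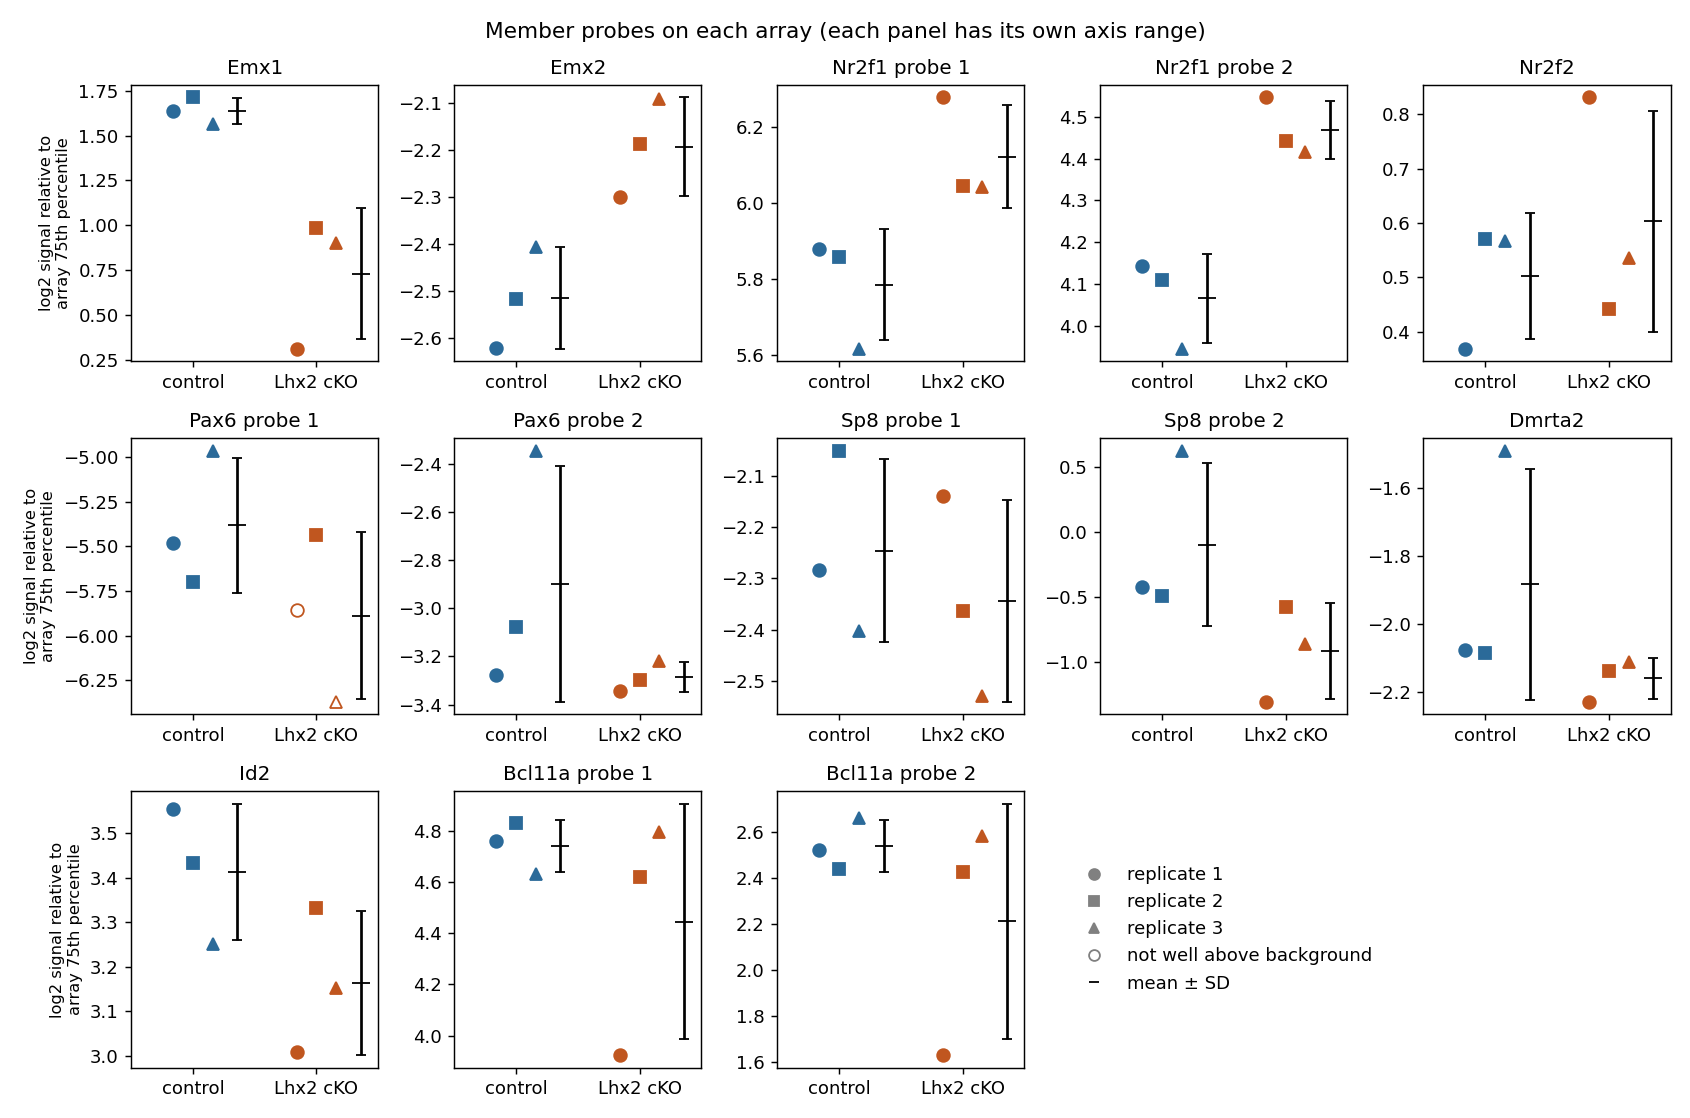
Log2 signal relative to the 75th percentile of the array (vertical axis, own range in each panel) for each of the 13 member probes, by group (horizontal axis). Symbols give the replicate, open symbols are not well above background, and bars are mean ± SD with n = 3. Emx1 lies between 0.31 and 0.98 in the cKO group and between 1.57 and 1.71 in control, while control replicate 3 stands above the other arrays for Pax6, for Sp8 probe 2 and for Dmrta2.

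Emx1, a homeobox gene of dorsal telencephalic progenitors and their excitatory neurons, had the largest difference and the smallest p of the members. Its probe (chromosome 6, 85154062 to 85154121 on mm9; exon and UTR annotation on that build was not used here) read 1.64, 1.71 and 1.57 in control replicates 1, 2 and 3. In cKO replicates 1, 2 and 3 it read 0.31, 0.98 and 0.90. Every cKO array was below every control array, and cKO replicate 1 was the lowest by 0.59. The group means were 0.73 ± 0.37 in cKO and 1.64 ± 0.07 in control (SD, n = 3 each). The log2 difference was -0.91 (SE 0.19, 95% interval -1.35 to -0.46), which is a 1.88-fold lower signal with an interval of 1.38 to 2.55-fold. It did not pass over all probes (adjusted p = 0.322, limma; unadjusted p = 0.002). Without cKO replicate 1 the difference was -0.70. It was -0.65 within slide row 1, -0.81 within row 2 and -0.98 against control replicate 2, the control without Y-linked signal. Over the 20 other ways of processing it stayed between -1.03 and -0.70, with an unadjusted p under 0.05 in all 20 and an adjusted p between 0.066 and 1.

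The levels of excitatory neuron markers are given beside Emx1, since RNA of a whole dissected area cannot tell fewer cells of a type from less RNA per cell. Summed over the 8 markers, their linear signal relative to the 75th percentile was 50.2 to 54.3 in the cKO group and 44.5 to 52.1 in control. Most of that sum came from Nrgn (log2 difference -0.04) and Neurod2 (0.28), both with overlapping groups. Of the 8, 4 were higher and 4 lower by sign. The groups did not overlap for 1 higher and 2 lower, against 13.3% of all genes in either direction. These were Neurod1 (log2 difference 1.16), Slc17a6 (-0.35) and Slc17a8 (-0.23), and none passed (limma, adjusted p).

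Emx2, the paralog of Emx1 and a caudal and medial factor of progenitors, lay the other way. Its probe (chromosome 19, 59539142 to 59539201) was dim, at -2.62, -2.52 and -2.41 in control replicates 1, 2 and 3 and -2.30, -2.19 and -2.09 in cKO replicates 1, 2 and 3. The groups did not overlap, but the gap between the lowest cKO and the highest control array was about as large as the steps between arrays of the same group. The log2 difference was 0.32 (SE 0.11, 95% interval 0.07 to 0.58), a 1.25-fold higher signal that did not pass (adjusted p = 0.584, limma). It was 0.44 within slide row 1 and 0.43 within row 2.

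Its antisense gene Emx2os had 2 tested probes, with log2 differences of 0.12 (SE 0.13) for the brighter and -0.38 (SE 0.19) for the dimmer, so the antisense RNA showed no common direction. Of 153 listed genes, Dcx, a microtubule-associated protein of young neurons, was most like Emx2 over the 6 arrays (Pearson r = 0.96, log2 difference 0.30). Here and below, such an r is the highest of 153 values over only 6 arrays. The difference of Emx1 was below that of Emx2 by 1.23 on the log2 scale. This gap between the paralogs did not overlap between the groups, with an exact permutation p = 0.1, two-sided, n = 3 each. That is the smallest p that 3 against 3 arrays can give. Emx1 and Emx2 each separated the groups, in opposite directions, so their gap had to separate them too. The permutation p therefore adds nothing to the results of the 2 probes. Over the 6 pairs of probes compared in this way the adjusted p was 0.6.

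Nr2f1, the COUP-TF factor that sets the boundary between frontal and sensory areas, was higher in the cKO group at both of its probes. Probe 1 (chromosome 13, 78328723 to 78328782) read 5.88, 5.86 and 5.62 in control replicates 1, 2 and 3. In the cKO replicates it read 6.28, 6.05 and 6.04, so that all 3 lay above control. Its log2 difference was 0.34 (SE 0.12, 95% interval 0.05 to 0.63), which is 1.26-fold.

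Probe 2 (chromosome 13, 78328290 to 78328349) lies close to it on the same strand. It read 4.14, 4.11 and 3.95 in control and 4.55, 4.44 and 4.42 in the cKO replicates, again without overlap. Its log2 difference was 0.40 (SE 0.10, 95% interval 0.16 to 0.64), or 1.32-fold. Both probes report the same transcript and are not independent measurements of the gene. The adjusted p was 0.641 for probe 1 and 0.414 for probe 2 (limma), and neither passed. The probes differed from each other by 0.06 in their log2 difference (exact permutation p = 0.2, adjusted p = 0.6). Within slide row 1 the differences were 0.17 and 0.30 for probes 1 and 2, and within row 2 they were 0.18 and 0.31. Both probes were highest in cKO replicate 1 and lowest in control replicate 3. Of the listed genes, the Notch target Hes5 was most like Nr2f1 (Pearson r = 0.997 over 6 arrays, log2 difference 0.34).

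Nr2f2, the other COUP-TF factor, which marks caudally derived interneurons, showed no separation of the groups. Its probe (chromosome 7, 77496873 to 77496932) read 0.37, 0.57 and 0.57 in control replicates 1, 2 and 3 and 0.83, 0.44 and 0.54 in cKO replicates 1, 2 and 3. The log2 difference of 0.10 had a 95% interval of -0.22 to 0.42 (adjusted p = 0.999, limma), and without cKO replicate 1 it was -0.01. The difference of Nr2f1 was above that of Nr2f2 by 0.24 (exact permutation p = 0.3, adjusted p = 0.6), so a difference between these paralogs was not shown. Emx2os was the listed gene most like Nr2f2 over the 6 arrays (Pearson r = 0.977). The 11 markers of caudally derived and Id2 interneurons had 5 higher and 6 lower by sign and no group separation for any of them. Their summed signal was 55.6 to 70.1 in the cKO group and 52.8 to 79.3 in control. Most of that sum was Cck, the brightest of the 11 (log2 difference -0.12, overlapping groups).

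**Figure D2:**
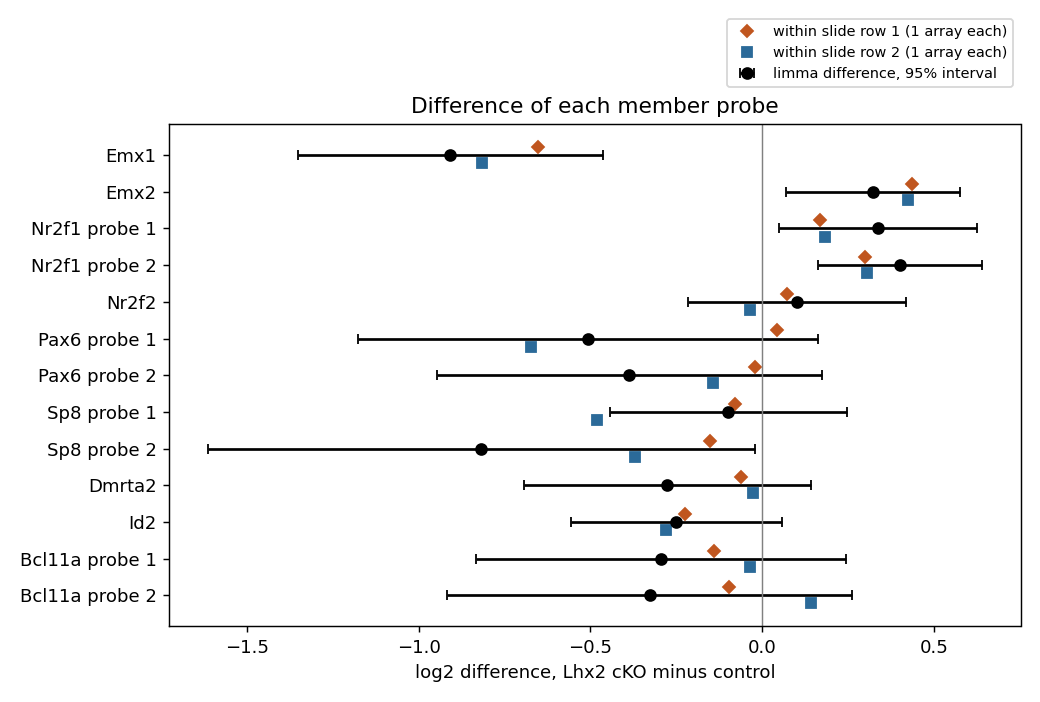
Log2 difference of each member probe, cKO minus control (horizontal axis), with the limma 95% interval in black. Diamonds and squares give the difference of 1 array from 1 within slide rows 1 and 2. The intervals of Emx1, Emx2, both Nr2f1 probes and Sp8 probe 2 leave out 0, and none of the 13 probes passed with p adjusted over 50030 probes.

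The rostral factors Pax6 and Sp8, with Dmrta2, were lower in the cKO group by sign at all of their probes, with and without control replicate 3. Without that array the difference was closer to 0 at 4 of these 5 probes, the exception being Sp8 probe 1. Pax6, a paired-box factor of radial glia, had a dim and a brighter probe. The brighter one, probe 2 (chromosome 2, 105536454 to 105536513, 2 spots per array), read -3.28, -3.08 and -2.35 in control replicates 1, 2 and 3. It read -3.34, -3.30 and -3.22 in the cKO replicates. The groups overlapped, since control replicate 1 lay among the cKO arrays. The log2 difference was -0.39 (SE 0.24, 95% interval -0.95 to 0.17, adjusted p = 0.904), and -0.11 without control replicate 3.

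Pax6 probe 1 is not placed on mm9 in the files. It read -5.48, -5.70 and -4.96 in control replicates 1, 2 and 3 and -5.85, -5.44 and -6.37 in the cKO replicates, where replicates 1 and 3 were not well above background. Its log2 difference of -0.51 (SE 0.28) was -0.05 with normexp background correction, -0.30 without control replicate 3 and -0.27 without cKO replicate 3. These readings lie close to the background and set no firm size.

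Sp8, a zinc-finger factor of rostral progenitors and of interneurons made in the ganglionic eminences, gave unlike readings at its 2 probes. Probe 2 (chromosome 12, 120090880 to 120090939) read -0.43, -0.49 and 0.62 in control replicates 1, 2 and 3 and -1.31, -0.58 and -0.86 in cKO replicates 1, 2 and 3. The groups did not overlap, but control replicate 3 was the highest array by 1.05. The log2 difference was -0.82 (SE 0.33, 95% interval -1.61 to -0.02), a 1.76-fold lower signal that did not pass (adjusted p = 0.716, limma). Without control replicate 3 it was -0.46, within slide row 1 -0.15 and within row 2 -0.37.

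Probe 1 of Sp8 (chromosome 12, 120088145 to 120088204) read -2.28, -2.05 and -2.40 in control and -2.14, -2.36 and -2.53 in the cKO replicates. Here control replicate 3 was the lowest control array, and the log2 difference was -0.10 (95% interval -0.44 to 0.25). It was -0.20 without cKO replicate 1, -0.0058 without cKO replicate 3, -0.18 without control replicate 3 and -0.0012 without control replicate 2. The 2 probes differed by 0.72 in their log2 difference (exact permutation p = 0.4, adjusted p = 0.6). They did not agree on control replicate 3, and which reports Sp8 better cannot be told from these files.

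Dmrta2, a doublesex-related factor of medial progenitors, showed the same order of control arrays as Sp8 probe 2 and Pax6 in that replicate 3 was highest. Its probe (chromosome 4, 109656028 to 109656087) read -2.08, -2.08 and -1.49 in control and -2.23, -2.14 and -2.11 in the cKO replicates. Every cKO array was below every control array, by as little as 0.03 between the closest pair within slide row 2. The log2 difference was -0.28 (SE 0.18, 95% interval -0.69 to 0.14, adjusted p = 0.920), and -0.08 without control replicate 3.

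Control replicate 3 was above the mean of the other controls by 0.83 for Pax6 probe 2, 0.63 for Pax6 probe 1, 1.08 for Sp8 probe 2 and 0.59 for Dmrta2. Several, but not all, markers of progenitors and of interneuron precursors were high on the same array. Of 11 progenitor and radial glia markers, 8 had their highest reading on control replicate 3, as did 4 of 7 general interneuron markers and 5 of 8 striatal markers. The same array held the lowest reading of 2 of the 11 progenitor markers, 0 of the 7 interneuron markers and 1 of the 8 striatal markers. Among those below the mean of the other controls were Hes1 (by -0.56), Slc32a1 (-0.29) and Gpr6 (-0.19). How many of all tested probes were highest or lowest on this array was not counted. Dlx2, a factor of interneuron precursors, read 1.6 there against 0.77 and 0.59 in control replicates 1 and 2. Sox2 read 0.38 against -0.09 and -0.11, and Eomes, a factor of intermediate progenitors, read -1.72 against -3.09 and -2.95. Ppp1r1b, a signalling protein of striatal neurons, read 2.76 against 0.79 and 0.78.

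Over whole lists, the summed signal of the progenitor markers was 75.7 to 81.8 in the cKO group and 72.1 to 95.2 in control. Most of that sum was Fabp7 (log2 difference -0.0092). By sign, 3 progenitor markers were higher and 8 lower, with no overlap for 1 higher and 4 lower. The sum of the 7 general interneuron markers was 24.1 to 29.0 in cKO and 32.9 to 35.5 in control, and most of it was Slc32a1 (-0.32). All 7 were lower by sign, 2 with no overlap. These counts stand against no overlap for 13.3% of all genes in either direction. For the 8 striatal markers the summed signal was 37.8 to 41.0 in cKO and 42.1 to 52.6 in control. Most of that striatal sum was Foxp1, the brightest of the 8 (log2 difference -0.16). By sign, 3 striatal markers were higher and 5 lower. Every progenitor, general interneuron and striatal marker was tested. Of 9 markers of interneurons from the medial ganglionic eminence, Nkx2-1 was not tested because it was well above background on too few arrays. The other 8 were all lower by sign, 2 with no overlap (Satb1 and Npy), against 13.3% of all genes in either direction. Their summed signal was 46.2 to 51.6 in cKO and 62.4 to 65.0 in control. Most of that gap came from 1 gene, Satb1 (log2 difference -1.24, adjusted p = 0.110, limma). Lhx6 (-0.10), Sst (-0.15) and Pvalb (-0.14) had overlapping groups. The listed genes most like the members over the 6 arrays were Dlx5 for Pax6 (Pearson r = 0.99) and Sox2 for Dmrta2 (0.996). The part of these markers in the differences of Pax6, Sp8 and Dmrta2 was not tested.

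**Figure D3:**
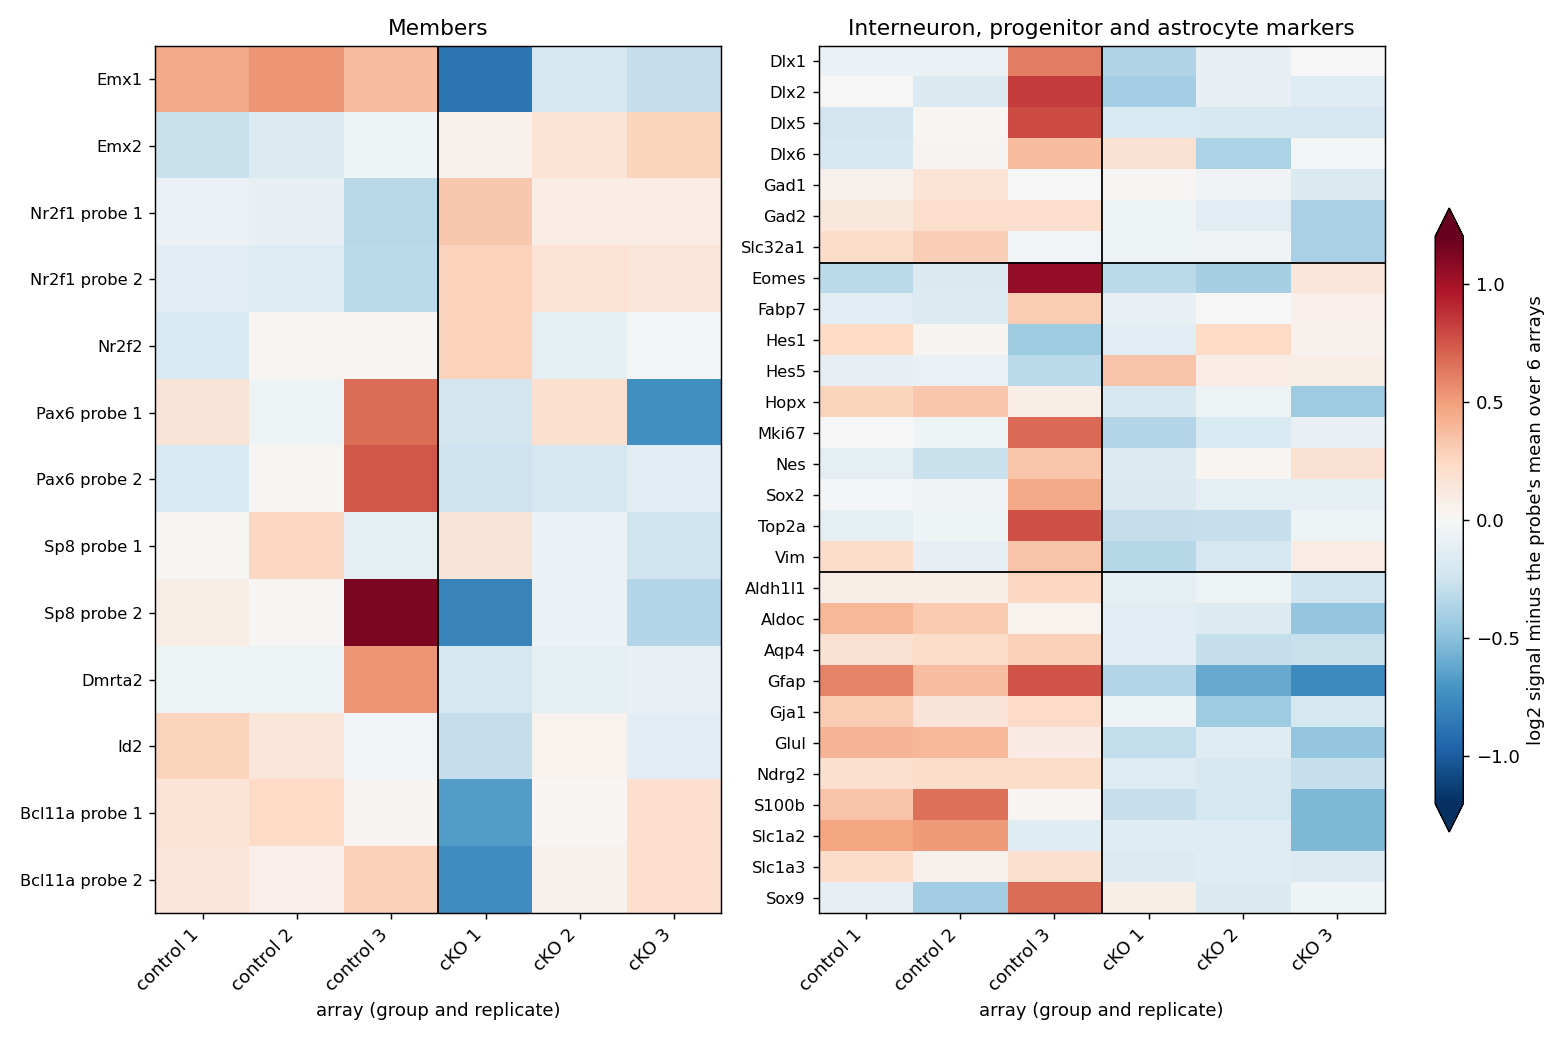
Log2 signal minus the mean of the probe over the 6 arrays (colour, limited to -1.2 to 1.2) for the member probes (left) and for interneuron, progenitor and astrocyte markers (right, brightest tested probe, blocks separated by lines). Columns are arrays. Pax6, Sp8 probe 2 and Dmrta2 are high on control replicate 3 together with Dlx1, Dlx2, Dlx5, Eomes and Top2a, and both Bcl11a probes are low on cKO replicate 1.

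Id2, an inhibitor of basic helix-loop-helix factors with layered and areal expression in the cortex, was lower by sign with overlapping groups. Its probe (chromosome 12, 25778904 to 25778963) read 3.55, 3.43 and 3.25 in control replicates 1, 2 and 3 and 3.01, 3.33 and 3.15 in the cKO replicates. Control replicate 3 lay between the cKO arrays. The log2 difference was -0.25 (SE 0.13, 95% interval -0.56 to 0.06, adjusted p = 0.849, limma). It was -0.22 within slide row 1, -0.28 within row 2 and -0.33 without control replicate 3. Cdh6, a cadherin with areal expression, was the listed gene most like Id2 (Pearson r = 0.99), with a log2 difference of -0.15.

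Among the other Id genes, log2 differences were -0.48 for Id4 (adjusted p = 0.434) and -0.32 for Id3 (adjusted p = 0.759). The 11 astrocyte markers were all lower by sign, 10 of them with no overlap between the groups, against 13.3% of all 32869 genes in either direction. Their summed signal was 105.7 to 125.5 in the cKO group and 150.5 to 175.7 in control. Of 9 oligodendrocyte lineage markers, 7 were lower by sign (3 with no overlap) and 2, Mbp and Mog, higher (Mbp with no overlap). All 8 microglia markers were lower by sign, 5 of them with no overlap. No glial marker passed in the fit over all probes (limma, adjusted p). The part of glial RNA in the differences of Id2 and Id4 was not tested.

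Bcl11a (Ctip1), a zinc-finger factor of postmitotic projection neurons that favours sensory over motor area identity, was low on a single array. Probe 1, designed on transcript variant 1 (chromosome 11, 24073114 to 24073173), read 4.76, 4.83 and 4.63 in control replicates 1, 2 and 3 and 3.92, 4.62 and 4.79 in cKO replicates 1, 2 and 3. Probe 2, designed on transcript variant 4 (chromosome 11, 24068355 to 24068414), read 2.52, 2.44 and 2.66 in control and 1.63, 2.43 and 2.58 in the cKO replicates. At both probes cKO replicate 1 lay below every other array, by 0.69 and 0.80, and the other cKO arrays lay within or near the control range. The log2 differences were -0.29 (95% interval -0.83 to 0.24) and -0.33 (95% interval -0.92 to 0.26). The adjusted p was 0.968 for probe 1 and 0.966 for probe 2. Without cKO replicate 1 they were -0.03 and -0.04. The probes did not separate from each other, with a gap of 0.03 between their log2 differences (exact permutation p = 0.9, adjusted p = 0.9). Whether either probe is specific to its variant was not examined. Tenm3, a teneurin adhesion protein, was the listed gene most like Bcl11a (Pearson r = 0.907), with a log2 difference of -0.48. The next listed gene was nearly as close (r = 0.905).

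Array by array, cKO replicate 1 held the lowest reading of 7 of the 13 member probes and the highest of 3. It was lowest for Emx1, Id2, Dmrta2, Pax6 probe 2, Sp8 probe 2 and both Bcl11a probes, and highest for Nr2f2 and both Nr2f1 probes. It was also the array in row 4 of the slide. Control replicate 3 held the highest reading of 5 and the lowest of 2. Replicate 2 of the cKO group held neither extreme for any member probe. Probes of 1 gene are counted separately here. Of 55 other areal patterning genes, cKO replicate 1 held the highest reading of 16 and the lowest of 10. For control replicate 3 these were 18 and 9. The share over all tested probes was not counted. With the slide row as a linear term the difference of Emx1 was -0.85 and that of Emx2 0.32.

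Other genes of areal patterning, in a list of signals, receptors, targets and graded markers, were then counted. Of 57 genes in the list, 56 were on the array under the names used and 55 were tested, with 89 probes. Wnt3a was on the array and was well above background on too few arrays. Of the 89 probes, 0 passed (limma, adjusted p), and 23 had an unadjusted p under 0.05, 9 higher and 14 lower. The count of 23 became 10 with a term for Y-linked signal. In that setting the count over all tested probes also fell, from 3400 to 1526. By brightest probe, 5 of the 55 genes were higher and 12 lower at an unadjusted p under 0.05, against 2.96% and 4.16% of all genes. The groups did not overlap for 6 higher and 13 lower genes of the 55, against 13.3% of all genes in either direction. The median log2 difference of the list was -0.02, against 0.02 over all 32869 genes.

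Among graded surface molecules, Epha7, an ephrin receptor with areal borders in the cortex, had the smallest p of the list. Its brightest probe read 0.61, 0.58 and 0.57 in cKO replicates 1, 2 and 3, and -0.32, -0.12 and -0.16 in control. All 3 cKO arrays lay above control, with a log2 difference of 0.79 (SE 0.09, adjusted p = 0.105). Its other probes gave 0.93 and 0.74. Efna5, a ligand of EphA receptors that is strong in somatosensory cortex, lay the other way. It read 0.96, 1.57 and 1.34 in the cKO replicates and 2.52, 2.56 and 1.99 in control, a difference of -1.07 (SE 0.21, adjusted p = 0.312).

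Among transcriptional regulators, the LIM-only gene Lmo3 had a log2 difference of -0.75 (adjusted p = 0.313), with 1.25 ± 0.03 in control and 0.50 ± 0.28 in cKO. The layer 6 and rostral factor gene Tbr1 had 0.33 at its brightest probe (adjusted p = 0.526) and 0.20 (SE 0.15) at its other tested probe. The homeobox gene Meis2 had 0.62 (adjusted p = 0.678), with overlapping groups. Among signals, Bmp4, a ligand of the dorsal midline, had -0.66 (adjusted p = 0.463), with 0.19 ± 0.19 in cKO and 0.85 ± 0.30 in control. Crym, a thyroid hormone-binding protein with graded cortical expression, had 0.89 (adjusted p = 0.425), at 3.93, 3.35 and 3.11 in cKO replicates 1, 2 and 3. In control it read 2.80, 2.51 and 2.42, below all cKO arrays. No gene named here from the list passed over all probes. The list and the members were chosen with earlier results of these data known, so these counts are a description.

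**Figure D4:**
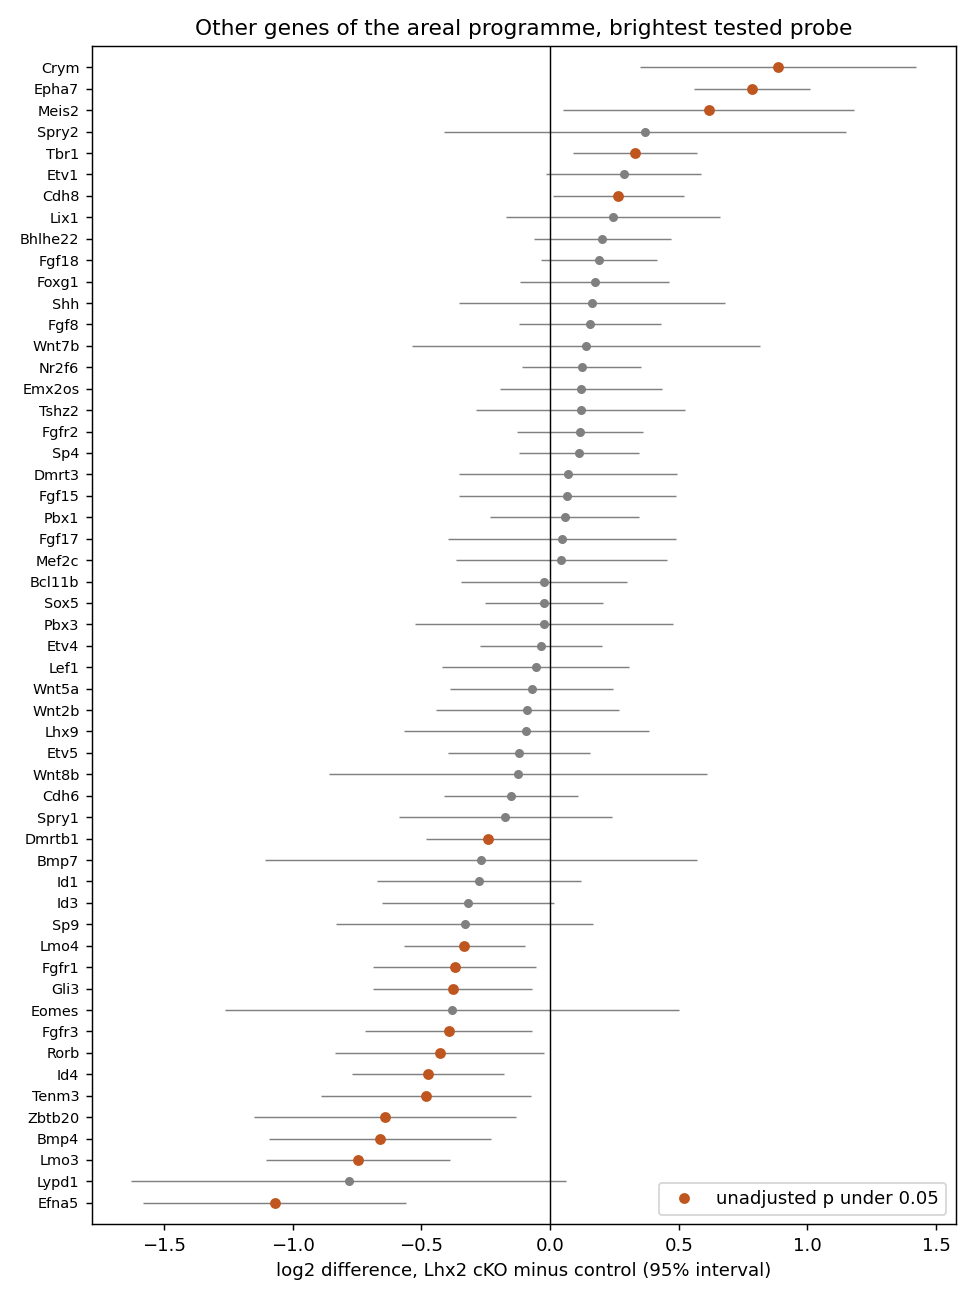
Log2 difference, cKO minus control (horizontal axis), of the brightest tested probe of 54 of the 55 other areal patterning genes tested, with limma 95% intervals. Orange points have an unadjusted p under 0.05, and 0 of them passed with p adjusted over all probes. Crym (0.89) and Epha7 (0.79) lie at the top and Efna5 (-1.07) at the bottom.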

How the data were processed

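The deposited scanner files hold fluorescence intensity values of 1-colour (Cy3) arrays from Agilent's scanner software (Feature Extraction 10.5.1.1), as the file headers record. The processed intensity is detrended and background-subtracted, with a surrogate value for spots not above background, and was not normalized between arrays, per the file headers. Amplified RNA took up Cy3 in an in vitro transcription step, per the labels. The authors' series matrix holds deposited log2 values, and how these were made is not given in sources used here. They matched quantile-normalized log2 processed signals minus the median of each probe, with 95% of values within 0.00235, and column medians lay between -0.0064 and 0.00645. Scale and centring are inferred from this match, and the matrix served as an alternative.

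Control and outlier-flagged spots were left out, log2 signals were centred on the 75th percentile of each array, and spots of a probe were averaged. Probes well above background on at least 3 of 6 arrays were tested. Groups were compared per probe with limma 3.58.1 in R 4.3.3 (lmFit, eBayes). Tests were two-sided, and p-values were adjusted over all tested probes by the Benjamini-Hochberg method. Counts by gene use the brightest tested probe. The fit was tested on simulated data. Members, lists and tests were chosen with earlier results of these data known. The genes named are all members, Lhx2, up to 4 areal list genes per direction with the smallest p, the listed gene most correlated with a member (a description that includes the group difference, and not reported here for Emx1 and Sp8), and others chosen after their values were seen (the markers of control replicate 3, Emx2os, Id3, and markers named as examples). Gene names are those of the files, and probe positions are on mm9. Upstream windows are from RefSeq and were not converted between builds. Other settings covered scaling, background correction, filters, variance models, the slide row, single arrays, the replicate number and the authors' matrix. A term for Y-linked signal, and a fit without the arrays that carry it, were chosen after seeing the data.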

Additional observations from a re-analysis of the deposited data

How the results depend on the processing

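Across 20 other settings, 254 values of member probes kept their direction and 1 did not. The exception was Nr2f2, whose difference (0.10 with all arrays) was -0.013 without cKO replicate 1 and at most 0.18 when 1 array was left out. The smallest size was that of Sp8 probe 1 without control replicate 2, at -0.0012. The count of member probes that passed was 0 in all 20, while the number with an unadjusted p under 0.05 ranged from 1 to 7.

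For the areal list, 0 probes passed with all arrays and the default settings, 2 with normexp background correction, 3 with an intensity trend and robust variances, and 3 with array weights. For all probes, 0 passed (3400 at an unadjusted p under 0.05), against 1 with quantile normalization, 10 with median centring, 92 with normexp (54 higher, 38 lower), 118 with the trend and robust variances (68 higher, 50 lower), 172 with array weights (75 higher, 97 lower), 1 with the filter on all 6 arrays, 2 with the brightest probe per gene and 1 with the authors' matrix. Leaving out 1 array gave 0 to 10, with 10 without control replicate 2, 2 without control replicate 3 and 1 without cKO replicate 2. The causes were not tested. No scaling moved the median difference of all probes by over 0.1.

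The titles number the replicates 1 to 3 in both groups and do not say whether equal numbers pair the samples. The deviations of same-numbered arrays correlated at -0.17, 0.07 and 0.16. Those of differently numbered arrays lay between -0.25 and 0.22. With 3 arrays per group these values cannot decide whether samples were paired. With the replicate number as a block, 0 member probes, 0 areal probes and 0 of all probes passed, and Emx1 was -0.91 (adjusted p = 0.621). The number of arrays, and for Pax6 probe 1 its closeness to background, limit what can be seen.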
